A study of Mus musculus with 4 samples.

Results

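Slc7a11 or Ereg expressing tumour cells were 1880 of the 56375 barcodes in 4 single-cell RNA libraries of mouse pancreatic ductal adenocarcinoma. Each library was made with the droplet method of 10x Genomics from tumour pieces of 3 animals, pooled and freed with collagenase D, DNase I and liberase, and each group has 1 library. PH tumours came from animals given paricalcitol, a vitamin D analogue that acts on the vitamin D receptor, together with hydroxychloroquine, a weak base that gathers in lysosomes and keeps them from digesting their contents. G tumours came from animals given gemcitabine, a chemotherapy drug that is built into DNA and blocks its copying. GPH is known by its title, since the treatment label, which uses the abbreviation GnP-H, gives gemcitabine at 60 mg per kg and breaks off before any other agent. Control animals received PBS. The strain, the age, the tumour line or transgene and the length of treatment are not given in the sources used here. With 1 library per group the animals in a pool cannot be separated, and no p-value is given. Every interval below is a 95% interval that covers counting error only.

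The cells were chosen by measured values. A member had at least 5000 UMIs (unique molecular identifiers, 1 per captured RNA molecule), at most 20% of them mitochondrial, at least 20 Vim UMIs per 10000 and at least 1 UMI of Cdkn2a. It also had under 2 UMIs of Ptprc and Laptm5 per 10000, which sets leukocytes aside, and under 10 of Krt19 per 10000, which sets ductal cells aside. Mitotic cells were set aside by under 3 UMIs of Top2a, Cenpf, Ube2c and Birc5 per 10000, and Dcn or Dpt expressing cells by under 3 UMIs of both genes. The 9821 cells that met these conditions are called the base population, and the 1880 of them with 3 or more UMIs of Slc7a11 and Ereg together are the members. The other base population cells, with at most 2 such UMIs, are called the rest. Members numbered 1337 in PH, 83 in G, 142 in GPH and 318 in control, so 71.1% of them were in PH.

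Slc7a11 encodes the cystine carrier of the antiporter xCT, which trades glutamate for cystine, the building block of the antioxidant glutathione, and which protects cells from ferroptosis. Its promoter is a known target of the stress factor ATF4 and of NRF2. Ereg encodes epiregulin, a ligand of the EGF receptor that is made in inflamed and wounded epithelia and in many tumours. Ccl2 encodes the main monocyte attractant and Csf3 the granulocyte colony-stimulating factor G-CSF, and in pancreatic tumours both draw myeloid cells. Many of these genes, and the feedback genes Nfkbia and Tnfaip3, are known targets of NF-kappaB, the factor that carries tumour necrosis factor and interleukin 1 signals to the nucleus.

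The RefSeq promoters of 3 genes (build GRCm38.p6) are shown because Slc7a11 is 1 of the genes of the gate and Hilpda and Nfkbia were higher in the members of all 4 libraries. Each is the stretch of 250 bases before the start site, read 5′ to 3′ along the gene. Capitals mark the C/EBP-ATF element core TGATGNAA in Slc7a11 (chr3:50443614-50443863, minus strand), the NF-kappaB consensus in Hilpda (chr6:29272238-29272487, plus strand), and the NF-kappaB consensus followed by the antioxidant response element core TGACNNNGC in Nfkbia (chr12:55492648-55492897, minus strand).
Slc7a11: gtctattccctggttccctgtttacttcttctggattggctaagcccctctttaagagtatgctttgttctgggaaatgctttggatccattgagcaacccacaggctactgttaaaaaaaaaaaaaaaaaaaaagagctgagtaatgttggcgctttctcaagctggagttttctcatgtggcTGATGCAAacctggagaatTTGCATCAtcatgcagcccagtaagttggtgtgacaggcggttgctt
Hilpda: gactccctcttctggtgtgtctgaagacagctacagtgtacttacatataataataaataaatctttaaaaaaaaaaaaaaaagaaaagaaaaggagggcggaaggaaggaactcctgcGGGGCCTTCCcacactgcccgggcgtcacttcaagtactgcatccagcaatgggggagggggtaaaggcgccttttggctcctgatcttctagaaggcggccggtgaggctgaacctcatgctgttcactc
Nfkbia: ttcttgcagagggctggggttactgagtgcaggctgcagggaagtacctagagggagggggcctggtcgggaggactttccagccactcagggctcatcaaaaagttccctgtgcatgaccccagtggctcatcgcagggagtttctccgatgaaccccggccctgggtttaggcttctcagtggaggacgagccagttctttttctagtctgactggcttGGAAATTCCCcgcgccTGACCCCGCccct
The Slc7a11 stretch holds the C/EBP-ATF core on both strands, at -66 and -47 from the start site. The Hilpda match lies at -131, and those of Nfkbia at -29 and -13. Searched on both strands, the NF-kappaB consensus was in 7.25% of the 32851 promoters of the table, the antioxidant core in 10.2%, the C/EBP-ATF core in 3.45%, the AP-1 element TGANTCA in 6.75% and the TATA box core TATAAA in 12.4%. Of the 21 genes higher in the members of all 4 libraries, named below, 15 had a promoter in the table: 5 held the NF-kappaB consensus, 4 the antioxidant core, 3 the AP-1 element, 5 the TATA box core and 0 the C/EBP-ATF core. A match is a description of letters and not a bound site.

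The libraries held 190110092 UMIs over 18589 barcodes in PH, 144152432 over 16748 in G, 143298547 over 7918 in GPH and 158887422 over 13120 in control. Members were deeper than the rest. The gate counts UMIs and is not scaled to depth, and its part in this difference was not tested. The median depth of members was 12770 UMIs against 9378.5 in PH, 14009 against 10594 in G, 17286.5 against 12051 in GPH and 15226.5 against 11209.5 in control. Their median mitochondrial share was between 4.06% (control) and 5.65% (PH). Library pairs shared between 17 and 79 barcode sequences, and 0 barcodes were members in both libraries of a pair.

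The markers were those of the tumour cells of these libraries. Members had 4759 Vim UMIs in 1000000 (counts per 1000000 UMIs, CPM) in PH, 4687 in G, 4532 in GPH and 4509 in control, and the rule asked for Vim. Cdkn2a, the locus of the cell cycle inhibitors p16 and p19, was at 1200, 1100, 836 and 1286 CPM in the same order, with a median of 13 to 20 UMIs in a member although the rule asked for 1. The simple-epithelium keratin Krt8 was at 588, 573, 442 and 597 CPM, Krt18 at 643, 656, 561 and 743 CPM and mesothelin (Msln) at 251, 153, 312 and 261 CPM in PH, G, GPH and control. The epithelial adhesion gene Epcam was at 0.142 CPM in PH and listed at 0 in the other libraries. Members were thus vimentin-rich cells that kept keratins 8 and 18 but hardly any Epcam. The fibroblast receptor Pdgfra was at 0 to 2.51 CPM, while the summed level of 10 fibroblast markers was 369, 579, 765 and 521 CPM, of which Col3a1 gave 280, 364, 521 and 355 CPM.

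Transcripts of other cells were scarce but present. The 10 macrophage markers summed to 71.1 CPM in PH members, 139 in G, 44.0 in GPH and 128 in control, against 4120 to 5015 CPM in the leukocytes of the same libraries. T and NK cell markers summed to 34.8, 46.9, 35.4 and 16.7 CPM against 2066 to 3788 CPM in leukocytes. Neutrophil markers reached 393 CPM in G members and 9.35 CPM or less in the other libraries. In G 2 of the 83 members held 93.0% of these UMIs, and the other 81 were at 27.8 CPM. At least 2 macrophage marker UMIs were found in 11.7% of PH members and 7.78% of the PH rest, in 27.7% and 18.1% in G, in 19.7% and 12.2% in GPH and in 16.7% and 7.60% in control. Xist, the RNA of the inactive X chromosome, was at 0 to 10.4 CPM in members and at 531 to 1667 CPM in leukocytes. Y-linked genes summed to 0.190 CPM (4 UMIs) in PH members and 0.336 CPM (2 UMIs) in control members, but to 11.2 CPM (15 UMIs) in G members and 11.5 CPM (32 UMIs) in GPH members. The tumour cells of G and GPH therefore carried Y-linked transcripts and those of PH and control almost none. A difference of treatment and a difference of tumour origin cannot be told apart when G or GPH is set against control or PH.

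Csf3 was higher in the members of every library but was found in a minority of them. Its level was 28.5 CPM in PH members and 9.21 CPM in the PH rest, 23.8 and 7.45 in G, 35.1 and 4.18 in GPH, and 14.0 and 2.57 in control. A Csf3 UMI was found in 13.2% of PH members, 7.23% in G, 9.15% in GPH and 4.40% in control. It was found in 1.16%, 0.0718%, 0% and 0.237% of the T cells of the same libraries. T cells were shallower, at a median of 2363 UMIs in PH against 12770 in PH members. With cells thinned to 2000 UMIs the shares were 5.09% of members and 0.709% of T cells in PH. They were 2.41% and 0.0264% in G, 5.63% and 0% in GPH, and 1.89% and 0% in control. In level, PH T cells were at 9.67 CPM of Csf3 (15 UMIs), close to the PH rest at 9.21 CPM. T cells were at 0.198 CPM in G and 1.42 CPM (2 UMIs) in control. The tenth of the members with the most Csf3 held 93.0% to 100% of its UMIs in every library. The related inflammatory gene Cxcl1 was at 5.74, 0, 0 and 0.336 CPM in the members of PH, G, GPH and control. Il6 was at 2.23, 9.67, 17.9 and 0.673 CPM, with a UMI in 1.87%, 7.23%, 12.7% and 1.26% of the same members. Csf3 was thus raised over the rest at a low level held by few cells, and Cxcl1 and Il6 were at 17.9 CPM or less.

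The rule's own genes are given as a description. Slc7a11 was at 172 CPM in PH members and 15.8 CPM in the PH rest, at 90.8 and 10.9 in G, at 108 and 12.3 in GPH, and at 40.9 and 6.87 in control. Ereg was at 315 and 23.5 CPM in PH, 329 and 20.3 in G, 279 and 26.1 in GPH, and 248 and 18.8 in control. Since the gate chose the members by these genes, their likeness or difference between the members of the libraries is not a result. Over all base cells, where the gate plays no part, Ereg was at 113, 71.8, 129 and 51.2 CPM in PH, G, GPH and control. A Slc7a11 UMI was found in 68.9%, 53%, 57.0% and 32.1% of the members of PH, G, GPH and control. As a background from free RNA, in PH T cells it was found in 2.78% and an Ereg UMI in 2.08%, at a median depth of 2363 UMIs. By level, T cells were at 21.9 CPM of Slc7a11 in PH and 15.3 in G, above the rest of these libraries. In control they were at 4.25 CPM (6 UMIs), below the rest. In GPH 1 UMI was found in 59 T cells (4.58 CPM), too few to place them against the rest. PH T cells were at 10.3 CPM of Ereg, below the PH rest. Just inside the threshold, 292 members in PH, 16 in G, 25 in GPH and 105 in control had exactly 3 UMIs of the pair, and just outside it 471, 50, 47 and 226 cells had 2. Near the other limits, 246 PH members had 2 UMIs of Dcn and Dpt.

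Most members passed through Ereg. Cells with 3 or more Ereg UMIs and fewer of Slc7a11 made up 48.5% of the members in PH, 68.7% in G, 57.0% in GPH and 79.6% in control. Cells with 3 or more Slc7a11 UMIs and fewer of Ereg made up 25.9% in PH, 15.7% in G, 24.6% in GPH and 11.3% in control. Both genes reached 3 UMIs in 212 members of PH, 8 of G, 14 of GPH and 6 of control, and neither did alone in 131, 5, 12 and 23. With every cell thinned to 5000 UMIs, Ereg was detected in 39.1% of PH base cells with Slc7a11 and in 21.4% of those without it. The same shares were 32.7% and 17.6% in G, 36.0% and 28.6% in GPH, and 15.6% and 15.4% in control. Ereg was therefore more frequent in cells with Slc7a11 than in cells without it in PH and G, by a smaller margin in GPH, and at the same frequency in control. Thinned cells with both genes numbered 382 in PH, 18 in G, 27 in GPH and 21 in control. No interval was computed for these shares, so whether the GPH margin exceeds counting error was not tested.

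The share of base population cells that passed the gate was lowest in control. It was 23.7% in PH (1337 of 5631, interval 22.6 to 24.9), 13.3% in G (83 of 623, 10.8 to 16.2), 33.7% in GPH (142 of 421, 29.2 to 38.5) and 10.1% in control (318 of 3146, 9.08 to 11.2). GPH cells were the deepest, so the gate was repeated with the Slc7a11 and Ereg UMIs of each cell counted in 5000 drawn UMIs. The share was then 11.2% in PH (10.3 to 12.0), 6.26% in G (4.49 to 8.46), 12.8% in GPH (9.78 to 16.4) and 2.83% in control (2.28 to 3.47). PH and GPH did not differ beyond counting error at equal depth, G lay below both, and control lay below G. Over all base cells, Slc7a11 was at 64.1, 24.2, 51.2 and 11.7 CPM and Ereg at 113, 71.8, 129 and 51.2 CPM in PH, G, GPH and control. Gated on 1 gene, the share was 9.91%, 3.37%, 11.6% and 1.34% for Slc7a11 alone and 15.3%, 10.4%, 22.6% and 8.23% for Ereg alone. Ereg alone thus gave the larger share in every library, while the libraries differed from control by a larger fold in Slc7a11.

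**Figure D1:**
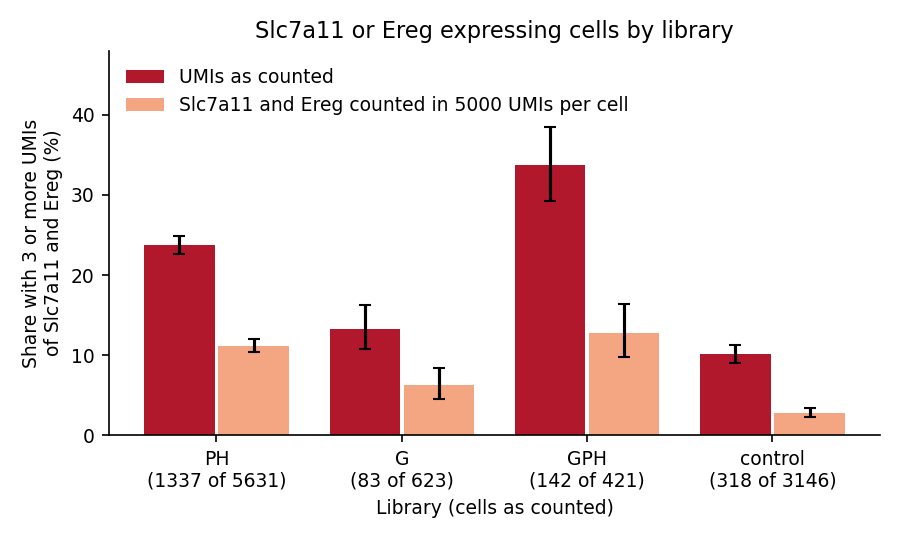
Share of base population cells (%) with 3 or more UMIs of Slc7a11 and Ereg in each library, as counted (dark) and counted in 5000 UMIs per cell (light), with 95% intervals for counting error. The bars stand at 23.7%, 13.3%, 33.7% and 10.1% as counted, and at 11.2%, 6.26%, 12.8% and 2.83% at equal depth, in PH, G, GPH and control.

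The base population itself was a different part of each library. In PH, 11749 barcodes passed the depth and mitochondrial limits, 10025 were left after the Vim, Cdkn2a and leukocyte limits, and 5631 formed the base population. The same steps left 7115, 1715 and 623 barcodes in G, 3693, 2318 and 421 in GPH, and 8617, 7132 and 3146 in control. In GPH the Krt19 limit left 1339 of 2318 barcodes, and the Dcn and Dpt limit left 421 of 1182, so that the base population was a smaller remainder of the vimentin-positive cells there than in PH. As a share of all barcodes, members were 7.19% in PH, 0.496% in G, 1.79% in GPH and 2.42% in control.

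Ccl2, a marker of the label that the rule did not use, was higher in the members of every library. Its level was 1517 CPM in members and 606 CPM in the rest in PH, 997 and 325 in G, 949 and 423 in GPH, and 533 and 205 in control. A Ccl2 UMI was found in 87.6% of PH members, 67.5% in G, 74.6% in GPH and 57.2% in control. In T cells a UMI was found in 11.6% of 432 cells in PH (median 2363 UMIs), in 5.14% of 4181 in G (median 4167), in 0 of 59 in GPH and in 3.32% of 422 in control (median 2584). With cells thinned to 2000 UMIs the shares were 68.6% of members and 10.3% of T cells in PH, 44.6% and 2.24% in G, 43.7% and 0% in GPH, and 28.9% and 2.01% in control. By level, PH T cells were at 641 CPM of Ccl2, above the PH rest at 606 CPM, while T cells were at 35.7 CPM in G and 35.4 CPM in control. The 995 Ccl2 UMIs of PH T cells were in 50 of the 432 cells. The level was uneven: the tenth of PH members with the most Ccl2 held 40.5% of its UMIs, and the highest single cell held 14.5% of them in G, 11.2% in GPH and 10.8% in control.

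Ccl2 and Tnfaip3 climbed with the number of gate UMIs in PH. Tnfaip3 encodes A20, an enzyme that ends NF-kappaB signalling. In cells thinned to 5000 UMIs with 0, 1, 2, 3 to 4 and 5 or more UMIs of Slc7a11 and Ereg, Ccl2 was at 552, 1077, 1457, 1569 and 2213 CPM in PH. In G it was at 355, 569, 1215, 1120 and 1857 CPM, in GPH at 407, 567, 937, 2005 and 1188 CPM, and in control at 185, 303, 266, 675 and 450 CPM. The steps were in order in PH alone, where the bins held 240 cells or more, while the uppermost bin held 14 cells in G, 17 in GPH and 20 in control. Tnfaip3 was at 39.5, 70.0, 96.4, 125 and 157 CPM in PH and at 8.40, 14.3, 13.6, 26.1 and 10.0 CPM in control. Areg, the gene of the EGF receptor ligand amphiregulin, was at 36.2, 66.0, 79.5, 121 and 142 CPM in PH and at 32.4, 57.1, 81.6, 84.1 and 160 CPM in control. In PH, cells with 1 or 2 gate UMIs thus lay between those with 0 and those with 3 or more in Ccl2, Tnfaip3 and Areg. In control, Tnfaip3 in these cells, at 14.3 and 13.6 CPM, lay above the 10.0 CPM of the uppermost bin. Whether the threshold of 3 cuts a continuous range was not tested.

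**Figure D2:**
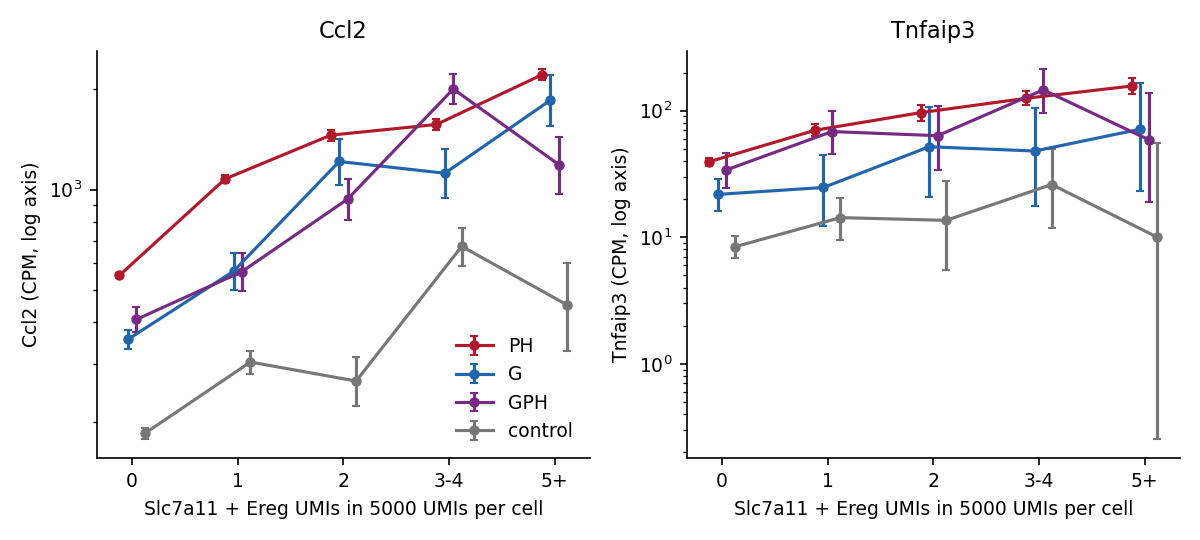
Level of Ccl2 (left) and Tnfaip3 (right) in CPM on a log axis, in base population cells thinned to 5000 UMIs and grouped by their Slc7a11 and Ereg UMIs, with 95% counting intervals, by library. PH values climb from bin to bin, to 2213 CPM of Ccl2 and 157 CPM of Tnfaip3 in cells with 5 or more; the upper bins of G, GPH and control hold few cells.

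Members differed from the rest by more genes upward than downward. A gene was counted as measured at 20 CPM on 1 side and 20 UMIs over both, and as higher or lower at 1.5-fold. In PH, 200 of 4295 measured genes were higher in members (4.66%) and 5 were lower (0.116%). In G, 514 of 4424 were higher (11.6%) and 89 lower (2.01%), in GPH 170 of 4955 were higher (3.43%) and 63 lower (1.27%), and in control 110 of 4374 were higher (2.51%) and 7 lower (0.16%). Of 3790 genes measured in all 4 libraries, 21 were higher in the members of each (0.554%) and 0 were lower in each. These 21 genes were chosen after their values were seen. Among them were Areg, Bach1, Ccl2, Ccl7, Cxcl2, Cxcl5, Has2, Hilpda, Il33, Inhba, Itga5, Lif, Ly6c1, Nfkbia, Nr4a2, Ptgs2, Srxn1, Tnfaip2 and Zc3h12a. Areg, Ccl2, Ccl7, Cxcl2, Cxcl5, Il33, Inhba and Lif encode secreted factors.

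Of these genes, 7, namely Areg, Ccl2, Cxcl5, Has2, Hilpda, Inhba and Zc3h12a, stayed at 1.5-fold or more in every library under each of 6 other settings that can change a ratio. Their lowest ratios over libraries and settings were 1.80, 2.16, 1.70, 1.51, 1.65, 1.65 and 1.62. Tnfaip3 also did so, with ratios of 2.83, 1.63, 1.62 and 2.18 in PH, G, GPH and control, but at 18.2 CPM in control members it was under the level needed to be counted as measured there. The settings reuse the cells in which the genes were chosen, so they are not independent support. Zc3h12a in every library, and Has2 in PH, reached 20 CPM in members alone. Of the 504 values of the 21 genes over libraries and these settings, 502 were above 1 and 474 were at 1.5 or more. Both values at or below 1 were of Cxcl2. With every cell left out that carried 2 or more UMIs of macrophage or of T and NK cell markers, its ratio was 0.222 in G and 0.162 in control. That setting removed 22% of members in PH, 38.6% in G, 28.2% in GPH and 20.8% in control.

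**Figure D3:**
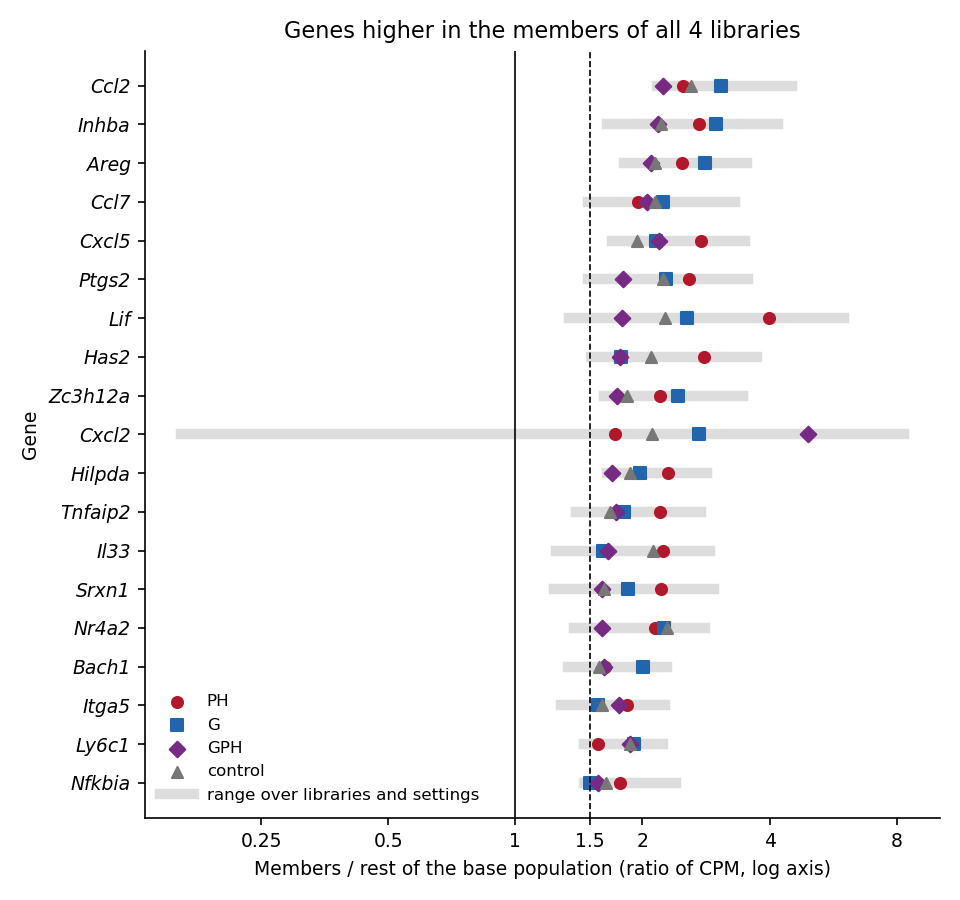
Ratio of CPM in members to CPM in the rest, on a log axis, for the genes named above as at 1.5-fold or more in every library, with 1 symbol per library and a grey bar for the range over libraries and settings. All symbols lie right of the dashed line at 1.5, and the grey bar of Cxcl2 alone runs below 1, down to 0.162.

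Among the ligands of the EGF receptor, Areg followed Ereg. Areg was at 103 CPM in members and 41.3 in the rest in PH, 177 and 62.9 in G, 94.2 and 45.0 in GPH, and 84.0 and 39.1 in control. T cells were at 108, 113, 156 and 56.6 CPM of Areg in PH, G, GPH and control, above members in PH and GPH. An Areg UMI was found in 6.25%, 16.8%, 15.3% and 3.79% of these T cells. The part of RNA from other cells in the member values was not tested. Hbegf, the heparin-binding ligand, was at 404 and 243 CPM in PH, 489 and 299 in G, 395 and 382 in GPH, and 295 and 200 in control, so it was past 1.5-fold in PH and G and short of it in GPH and control. The receptor Egfr itself was at 21.6 and 17.9 CPM in PH and 63.7 and 51.2 in GPH, and passed the fold in neither. Of 10 measured feedback genes and targets of ERK, the kinase below the receptor, 6 were higher and 0 lower in PH members, with a median log2 ratio of 0.74 against 0.05 over all measured genes. In G, 7 of 11 were higher, in GPH 0 of 10 (median 0.13) and in control 3 of 9. Spry2, a brake on receptor signalling, was at 58.0 and 32.8 CPM in PH and 71.2 and 66.5 in GPH.

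The neighbours of Ereg on chromosome 5 did not all move with it. Ereg (chr5:91074622-91093646, plus strand, GENCODE vM21 on mm10) has Areg (chr5:91139599-91148432) after it, and Mthfd2l (chr5:90931117-91021368), Cxcl2 (chr5:90903871-90905938) and Cxcl5 (chr5:90759360-90761624) before it. The ratio of members to rest was 2.49, 2.82, 2.09 and 2.15 for Areg and 2.75, 2.16, 2.19 and 1.94 for Cxcl5 in PH, G, GPH and control. It was 1.00, 0.66, 1.02 and 1.02 for Mthfd2l, a mitochondrial folate enzyme that lies between them. Btc (chr5:91357261-91402994, minus strand), the gene of the ligand betacellulin, had ratios of 1.02, 3.12, 1.58 and 1.46 at 18.6 CPM or less in members. The antisense gene Gm19610 that overlaps the start of Ereg was at 1.01 CPM or less.

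NF-kappaB feedback genes were mostly higher in PH members. Of 15 measured genes of subunits and feedback, 11 were higher in PH members and 0 lower, with a median log2 ratio of 0.80 against 0.05 over all genes. The counts were 9 of 15 in G (median 0.59, all genes 0.11), 7 of 15 in GPH (0.56, all genes 0.07) and 4 of 14 in control (0.46, all genes 0.06). This list and the others were chosen with earlier results of these data known, so their counts are descriptions. Nfkbia, the inhibitor IkappaB-alpha, was at 890 CPM in members and 503 in the rest in PH, 481 and 320 in G, 642 and 409 in GPH, and 495 and 301 in control. Tnfaip3 was at 111 and 39.2 CPM in PH (ratio 2.83, interval 2.66 to 3.01), 35.7 and 21.9 in G, 54.8 and 33.7 in GPH, and 18.2 and 8.33 in control. T cells express Tnfaip3 too, and 70.8% of PH T cells had a UMI of it. Zc3h12a, the nuclease Regnase-1 that degrades cytokine messages, was at 35.7 and 16.2 CPM in PH, 28.3 and 11.6 in G, 32.6 and 18.7 in GPH, and 30.3 and 16.5 in control.

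The subunit gene Nfkb1 and the adhesion gene Vcam1, through which leukocytes bind, were higher in some libraries. Nfkb1 was at 128 CPM in members and 64.6 in the rest in PH, 121 and 72.9 in G, 171 and 117 in GPH, and 50.3 and 35.6 in control. Vcam1 was at 314 and 142 CPM in PH, 329 and 188 in G, 416 and 241 in GPH, and 114 and 83.5 in control. Control members were thus closest to their rest in both genes. Relb and Nfkb2, which serve the alternative NF-kappaB pathway, were at 17.6 and 13.9 and at 28.4 and 24.8 CPM in PH members and the PH rest, under the fold.

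Chemokines and cytokines beyond Ccl2 were higher together. Cxcl5, a neutrophil attractant, was at 122 CPM in members and 44.5 in the rest in PH, 99.0 and 45.9 in G, 233 and 106 in GPH, and 92.7 and 47.8 in control. In PH 1 cell held 16.1% of its UMIs, and its level in members without that cell was 103 CPM. Ccl7, a monocyte attractant beside Ccl2, was at 123 and 63.0 CPM in PH, 151 and 67.5 in G, 249.2 and 122 in GPH, and 158 and 73.9 in control. All 5 measured neutrophil chemokines and colony-stimulating factors were higher in PH members (median log2 ratio 0.79). Lif, a cytokine of the interleukin 6 family, was at 37.8 and 9.49 CPM in PH, 72.2 and 28.3 in G, 60.9 and 34.0 in GPH, and 22.4 and 9.91 in control. Il33, an alarmin, was at 58.1 and 25.9, 145 and 90.0, 306 and 185, and 158 and 74.5 CPM in members and rest of the same libraries. Ptgs2, which makes prostaglandins, was at 39.4 and 15.3, 55.8 and 24.6, 91.3 and 50.7, and 34.3 and 15.4 CPM.

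Inhba, Has2 and Hilpda completed the set that held under the 6 settings. Inhba encodes the subunit of activin A, a ligand of the TGF-beta family, and was at 91.5 CPM in members and 33.7 in the rest in PH, 267 and 89.4 in G, 454 and 209 in GPH, and 89.5 and 40.4 in control. Has2 encodes a hyaluronan synthase and was at 35.6 and 12.7 CPM in PH, 118 and 66.2 in G, 227 and 128 in GPH, and 43.2 and 20.7 in control. All 4 measured hyaluronan genes were higher in PH members, among them Has1 at 185 and 106 CPM and the receptor Cd44 at 260 and 166 CPM. Hilpda encodes an inhibitor of fat breakdown in lipid droplets that hypoxia induces, and was at 241 and 105 CPM in PH, 313 and 159 in G, 522 and 308 in GPH, and 250 and 134 in control. Inhba and Has2 were highest in GPH members and were at least 1.5-fold above control members in G too, whereas PH members were near control members in both.

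Some other hypoxia genes were higher with Hilpda in PH. Of 21 measured genes of hypoxia and glycolysis, 5 were higher and 0 lower in PH members, with a median log2 ratio of 0.12, where 4.66% of all measured genes were higher. Vegfa, the vascular growth factor, was at 187 and 97.7 CPM and Ndrg1 at 180 and 108 CPM in PH members and rest. The glycolytic genes Pgk1 at 363 and 349 CPM and Ldha at 740 and 771 CPM did not pass the fold.

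Part of the NRF2 pathway was higher beside Slc7a11. Of 20 measured NRF2 targets and glutathione genes, 4 (Hmox1, Nfe2l2, Sqstm1 and Srxn1) were higher and 0 lower in PH members, with a median log2 ratio of 0.19, where 4.66% of all measured genes were higher. The counts were 6 of 19 in G, where 11.6% of all genes were higher, 1 of 23 in GPH (3.43%) and 1 of 17 in control (2.51%). The list was thus above the share of all genes in PH and G, and in GPH and control through 1 gene only. Most of its genes were under the fold. Srxn1, which repairs oxidised peroxiredoxins, was at 27.8 and 12.5 CPM in PH, 63.3 and 34.1 in G, 93.4 and 58.1 in GPH, and 23.4 and 14.4 in control. Hmox1, which breaks down haem, was at 86.1 and 40.3 CPM in PH but at 152 and 122 in G, 462 and 429 in GPH, and 79.1 and 72.7 in control. Gclm, a subunit of the enzyme that starts glutathione synthesis, was at 56.9 and 51.7 CPM and Txnrd1, thioredoxin reductase, at 68.8 and 49.8 CPM in PH members and rest. Nqo1, often used as a readout of NRF2, was close to 0. Bach1, a repressor of the same elements and 1 of the 21 genes, was at 44.5 and 27.2 CPM in PH.

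Some of the stress genes that ATF4 drives were past the fold. Of 8 measured genes of the integrated stress response, 2 were higher in PH members, Cebpb and Nupr1 (median log2 ratio 0.33). Of all measured genes 4.66% were higher, so this short list was above that share. Atf4 was at 81.6 and 85.1 CPM and Ddit3, the death-linked factor CHOP, at 24.3 and 21.2 CPM in PH members and rest. None of 15 endoplasmic reticulum chaperones passed the fold in PH (median 0.03), with Hspa5 at 499 and 443 CPM.

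Genes of autophagy and lysosomes, the process that hydroxychloroquine blocks, mostly lay under the fold. In PH, 1 of 14 autophagy genes was higher (median log2 ratio 0.27) and 0 of 15 lysosome genes (0.17). The autophagy gene past the fold was Sqstm1, the cargo receptor p62, at 458 CPM in PH members and 257 in the PH rest. Sqstm1 was at 467 and 291 CPM in G, 609 and 434 in GPH, and 368 and 248 in control. Map1lc3b was at 298 and 257 CPM and Lamp1 at 205 and 197 CPM in PH.

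Acute-phase genes were mostly higher in PH members. Of 7 measured acute-phase and complement genes, 6 were higher in PH members (median log2 ratio 0.94). Lcn2, an iron-binding protein of the acute phase, was at 53.6 CPM in PH members and 9.64 in the PH rest, a ratio of 5.56. A single member held 32.3% of its UMIs, and without that cell members stood at 36.3 CPM. With marker-carrying cells left out the ratio was 2.38. In the other libraries Lcn2 was at 35.7 and 19.98 CPM in G, 85.9 and 134 in GPH, and 3.20 and 2.21 in control. Lbp, the lipopolysaccharide binding protein, was at 79.3 and 35.0 CPM in PH, 52.1 and 35.6 in G, 148 and 140 in GPH, and 12.3 and 15.2 in control. In the list as a whole, 2 of 6 genes were higher in G members (median 0.43) and 0 of 8 in GPH members (0.20).

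Only 5 genes were lower in PH members at 1.5-fold. They were Fdps, an enzyme of the mevalonate pathway, at 130 CPM in members and 206 in the rest, and Ankrd1, a YAP target, at 34.4 and 52.8 CPM, with Crip1 at 25.7 and 39.9, Dnph1 at 17.1 and 26.7 and the replication gene Pclaf at 23.9 and 38.9 CPM. Fabp5 (142 and 208 CPM), Jun (467 and 616 CPM), Aqp5 (149 and 203 CPM) and S100a4 (5818 and 7313 CPM) were lower by less than the fold. Cholesterol synthesis as a whole was level, with 1 of 12 genes lower and a median log2 ratio of -0.02. MHC class II genes had 0 of 6 past the fold in PH, with a median of 0.31, and interferon-stimulated genes 0 of 6. The TGF-beta feedback gene Pmepa1 was at 116 and 51.4 CPM in PH members and rest.

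In G and GPH a few cells set the largest values. In G members Tff2 was at 464 CPM against 9.84 in the rest, but 1 cell of 31897 UMIs held 93.4% of its UMIs and 87.7% of those of Tff1. Without it Tff2 was at 31.3 CPM, and Tff1 was at 15.2 CPM, down from 121 CPM with it. In GPH members 1 cell of 54988 UMIs held 92.9% of the UMIs of Gsta1, 97.6% of Apoc2, 77.5% of Lgals4, 80.4% of Mucl3 and 71.7% of Tm4sf4. Its Epcam, Krt8 and Krt18 came to 113.5 UMIs per 10000 and its Krt19 to 1.09. Without it Gsta1 was at 5.84 CPM against 80.2 with it, Apoc2 at 1.83 against 74.8, and Lgals4 at 26.7 against 116. Among the genes lower in members were Lgals2 at 30.5 and 113 CPM, Pclaf at 22.3 and 50.1 and Hells at 32.0 and 61.3 in G members and rest, the last pair being genes of DNA replication. Txnip, an arrestin that limits glucose uptake, was at 20.4 CPM in GPH members and 110 in the GPH rest, and Foxq1 at 20.05 and 55.1 CPM. In control members Prl2c2, the placental hormone proliferin, was at 56.0 CPM against 19.5 in the rest, and Ptgds at 121 against 187.

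The members that passed through Slc7a11 and those that passed through Ereg differed in PH. Of 4393 measured genes, 44 were higher in the 346 cells with 3 or more Slc7a11 UMIs alone (1%) and 91 lower (2.07%) than in the 648 cells with 3 or more Ereg UMIs alone. Lbp was at 130 CPM in the Slc7a11 class and 29.5 in the Ereg class, with 146 CPM in cells that had both. Idh1, the cytosolic isocitrate dehydrogenase that makes NADPH, was at 227 and 130 CPM, with 222 in cells with both. R3hdml was at 79.0 and 41.7 CPM and fibronectin (Fn1) at 1378 and 910.4 CPM. Lbp, Idh1 and Fn1, at 1389 CPM in cells with both, were thus high in both classes with Slc7a11.

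Lower in the Slc7a11 class of PH were Slurp1, a secreted Ly6-family protein, at 37.5 CPM against 90.4 in the Ereg class, and Serpinb1a at 25.8 against 57.0. Cxcl5 was at 55.3 and 121 CPM, with 231 in cells with both, and Areg at 60.8 and 115 CPM, with 141 in cells with both. Lcn2 was at 28.3 and 63.5 CPM. Tnfaip3 did not separate the classes, at 102 and 101 CPM, and was at 154 CPM in cells with both and 39.2 in the rest. Ccl2 was at 1111, 1582 and 1836 CPM in the Slc7a11 class, the Ereg class and cells with both, against 606 in the rest. Every class lay above the rest in Ccl2 and Tnfaip3, so the member values of these genes did not come from a single class. Lbp did not separate the classes alike elsewhere: it was at 22.9 and 10.9 CPM in control, but at 129 and 141 CPM in GPH and at 41.0 and 49.3 CPM in the 13 and 57 cells of G. Slc7a11 and Ereg made the classes and are not results.

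**Figure D4:**
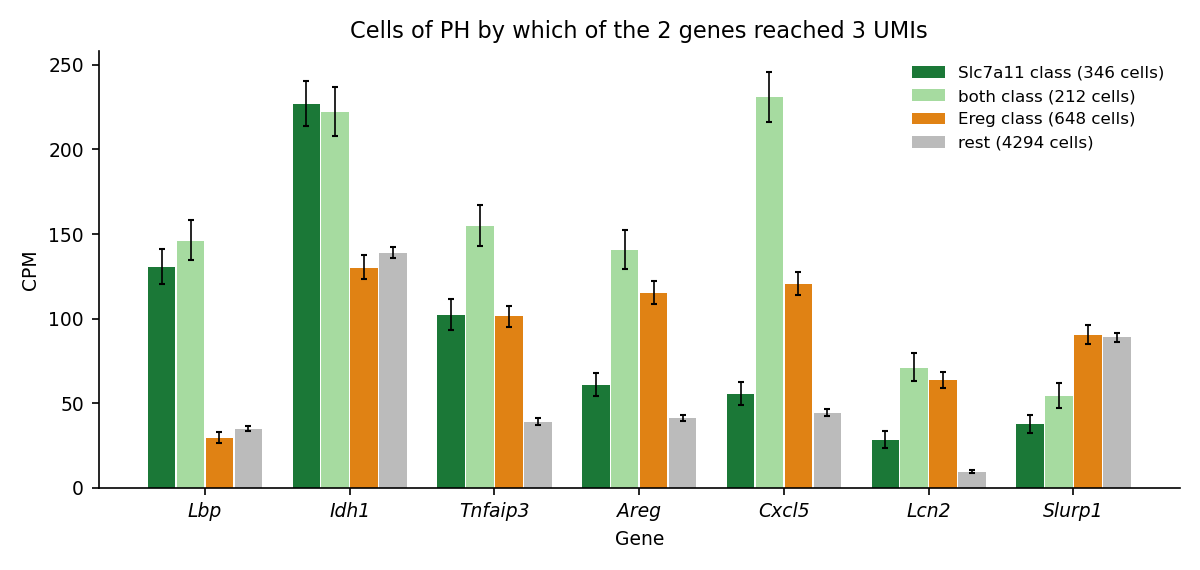
Level in CPM of 7 genes in PH cells with 3 or more UMIs of Slc7a11 alone, of both genes or of Ereg alone, and in the rest, with 95% counting intervals. Lbp and Idh1 stand higher in the bars with Slc7a11, while Areg, Cxcl5 and Slurp1 stand lowest among member classes in the bar with Slc7a11 alone; Tnfaip3 stands at 102 and 101 CPM in the bars for Slc7a11 alone and Ereg alone.

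PH members differed from control members in immune and metabolic genes. Of 4594 measured genes, 347 were higher (7.55%) and 505 lower (11%) in PH members at 1.5-fold. In the rest of the base population, 241 of 4345 were higher (5.55%) and 409 lower (9.41%). Each gene below is given with its ratio among members and then its ratio among the rest. Lcn2 was at 53.6 CPM in PH members and 3.20 in control members (16.8-fold, and 4.35-fold in the rest). Its ratio among members ran from 5.56 to 42.5 over the other settings, and without the single PH member that held 32.3% of its UMIs PH members stood at 36.3 CPM. Lbp was at 79.3 and 12.3 CPM (6.46-fold, and 2.30-fold in the rest). Tnfaip3 was at 111 and 18.2 CPM (6.1-fold, interval 5.03 to 7.47, and 4.70-fold in the rest). Ccl2 was at 1517 and 533 CPM (2.84-fold, and 2.96-fold in the rest). These genes were thus higher in PH among members and among the rest.

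Idh1 was at 172 CPM in PH members and 54.5 in control members (3.16-fold, and 2.40-fold in the rest). The orphan nuclear receptor gene Nr4a2 was at 113 and 41.6 CPM (2.72-fold, and 2.90-fold in the rest) and the nuclear RNA Neat1 at 907 and 383 CPM (2.36-fold, and 2.48-fold in the rest). Vcam1 was at 314 and 114 CPM (2.76-fold, and 1.70-fold in the rest), Nfkb1 at 128 and 50.3 CPM and the transcription termination factor gene Pcf11 at 72.7 and 26.4 CPM. Of 16 measured NF-kappaB genes 7 were higher and 0 lower in PH members (median log2 ratio 0.39, against -0.05 over all genes), and in the rest 6 of 14 (median 0.13). Acute-phase genes were higher in 4 of 7 (median 0.94).

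Antigen presentation and interferon genes were lower in PH members. All 6 MHC class II genes were lower (median log2 ratio -1.23, and -1.60 in the rest), with the invariant chain gene Cd74 at 180 CPM in PH members and 442 in control members, and H2-Aa at 97.5 and 173 CPM. Of 7 MHC class I genes 4 were lower (-0.64), and of 8 interferon-stimulated genes 6 were lower (-0.94). Isg15, a ubiquitin-like protein that interferon induces, was at 19.2 CPM in PH members and 72.2 in control members (0.266-fold, and 0.274-fold in the rest). Macrophages express MHC class II as well, and their markers summed to 71.1 CPM in PH members and 128 in control members. Their part in the class II values was not tested.

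Sterol and glycolysis genes were lower too. Of 12 cholesterol synthesis genes 8 were lower in PH members (median log2 ratio -0.71), against 1 of 12 in the rest (-0.29). Fdps was at 130 and 216 CPM in PH and control members (0.603-fold, and 0.821-fold in the rest), Idi1 at 50.4 and 96.6 CPM and Hmgcs1 at 69.7 and 124 CPM. Whether members and rest differ in this was not tested, since both contrasts have 1 library per group. Of 22 hypoxia and glycolysis genes 13 were lower in PH members (-0.64), and in the rest 13 were lower too (-0.70). Of 10 genes of the integrated stress response 5 were lower (-0.54). Lysosome genes were level, with 2 of 16 higher and 0 lower (-0.02), and of 14 autophagy genes 1 was higher and 2 lower (-0.29).

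Several of the largest drops in PH members followed a split between libraries. Hes1, a Notch target, was at 126 CPM in PH members and 124 in G members, against 579 in GPH and 528 in control members. Nmt1 was at 21.1, 30.5, 96.0 and 112 CPM and Tuba1c at 47.2, 47.6, 157 and 154 CPM in PH, G, GPH and control members. Spata7, at 25.1, 32.7, 65.9 and 217 CPM, and Hypk, at 34.1, 40.2, 52.99 and 105 CPM, were highest in control. A list of 5 genes with this split, chosen with earlier results known, summed to 405, 464, 1072 and 1019 CPM in the same order. PH and G share no drug in their labels, and the part of library preparation in these genes was not tested. Slurp1 (70.9 and 279 CPM), Tuba1b (89.2 and 257), Egln1 (17.98 and 56.2) and Phlda3 (24.3 and 72.5) were the other named genes lower in PH than in control members.

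**Figure D5:**
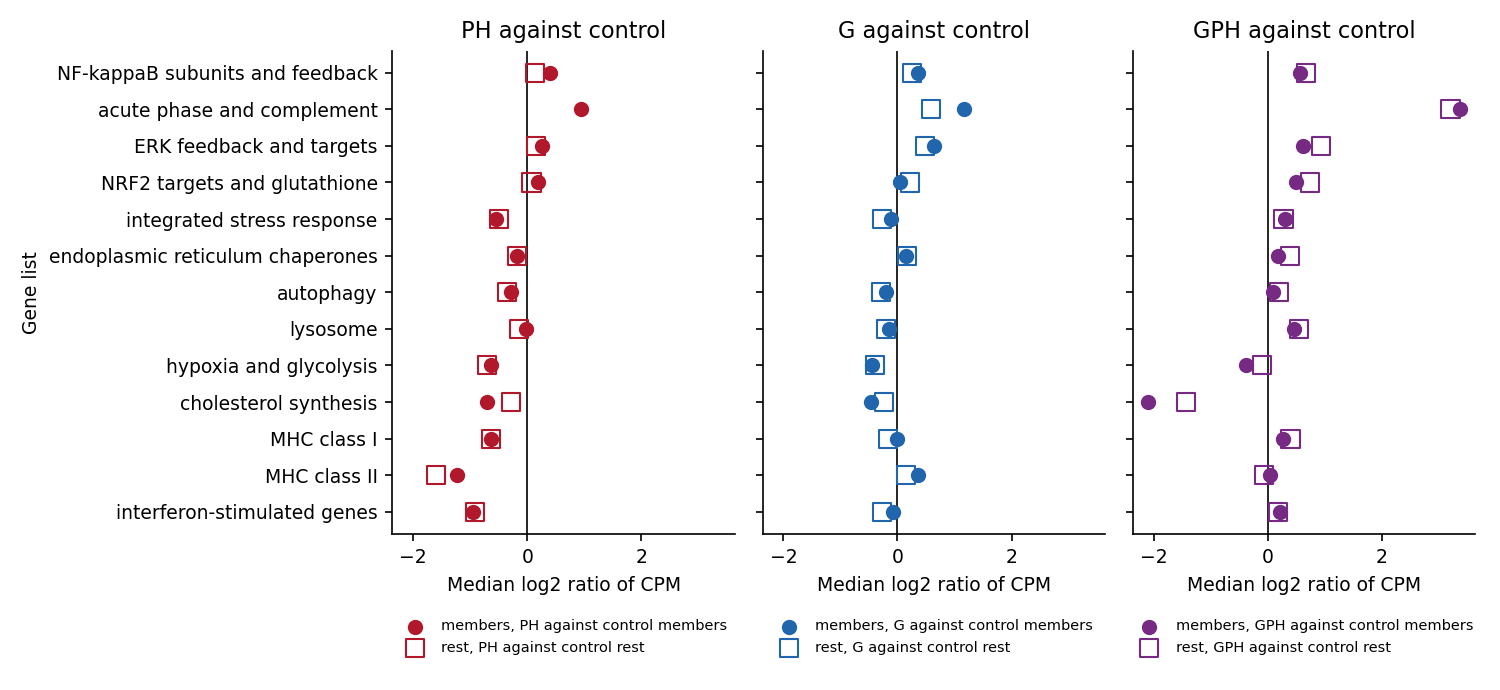
Median log2 ratio of CPM against control for 13 gene lists in PH (left), G (middle) and GPH (right), among members (filled circles, against control members) and among the rest (open squares, against the control rest). In PH the MHC class II list lies at -1.23 among members and -1.60 in the rest, and in GPH the cholesterol list lies at -2.09 and the acute-phase list at 3.37 among members; lists with under 5 measured genes have no symbol.

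G members against control members rested on 83 cells. Of 4662 measured genes, 456 were higher (9.78%) and 515 lower (11%), and in the rest 220 of 4326 were higher (5.09%) and 334 lower (7.72%). Cxcl10, an interferon-induced attractant of T cells, was at 366 CPM in G members and 55.0 in control members, and 1 cell held 32.3% of its UMIs in G. Pleiotrophin (Ptn) was at 150 and 12.4 CPM, clusterin (Clu) at 132 and 20.2 CPM and Il11, a cytokine of the interleukin 6 family, at 50.6 and 7.23 CPM. Prl2c2 was at 5.95 and 56.0 CPM and Slurp1 at 70.7 and 279 CPM. NF-kappaB genes were higher in 5 of 15 (median log2 ratio 0.37) and ERK targets in 6 of 11 (0.64). Unlike in PH, MHC class II genes were higher in 2 of 6 and lower in 0 (0.36). Cholesterol genes were lower in 4 of 12 (-0.47) and hypoxia and glycolysis genes in 8 of 22 (-0.45). Members with 2 or more macrophage marker UMIs were 27.7% in G and 16.7% in control.

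GPH members against control members rested on 142 cells, and the median log2 ratio of all genes was 0.15, so changes are read relative to it. Of 5035 measured genes, 1080 were higher (21.4%) and 527 lower (10.5%). With the median of all genes set to 0 these counts were 768 and 785, so the excess of higher genes depends on the scaling. In the rest of the base population, 1103 of 4833 were higher (22.8%) and 413 lower (8.55%). All 12 measured cholesterol synthesis genes were lower, with a median of -2.09, and in the rest 11 of 12 (-1.43). Idi1 was at 10.4 CPM in GPH members and 96.6 in control members (0.108-fold), Fdps at 32.6 and 216 CPM (0.151-fold), Hmgcs1 at 27.9 and 124 CPM (0.225-fold) and Cyp51 at 82.0 and 342 CPM (0.24-fold).

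Higher in GPH members were all 8 measured acute-phase and complement genes (median 3.37, and 7 of 7 at 3.20 in the rest). Lcn2 was at 85.9 CPM in GPH members and 3.20 in control members, Lbp at 148 and 12.3 CPM and complement C3 at 203 and 23.05 CPM. Interleukin 6 family genes were higher in 7 of 11 (1.08), NF-kappaB genes in 7 of 15 (0.57), NRF2 targets in 11 of 22 with 1 lower (0.49) and lysosome genes in 8 of 19 (0.46). Hmox1 was at 462 and 79.1 CPM, Has2 at 227 and 43.2 CPM and Inhba at 454 and 89.5 CPM. Tnfaip3 was at 54.8 and 18.2 CPM and Ccl2 at 949 and 533 CPM, both below PH members. Autophagy genes were higher in 3 of 14 and lower in 1 (0.09), integrated stress response genes higher in 4 of 12 (0.31) and chaperones in 5 of 19 (0.17). Of all measured genes 21.4% were higher in this comparison, with a median of 0.15. The autophagy and chaperone lists thus lay near all genes.

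GPH members were also set against the members of PH and G. GPH and PH members differ in Y-linked transcripts too, so treatment and tumour origin cannot be told apart between them. Of 4979 measured genes 1021 were higher (20.5%) and 277 lower (5.56%) than in PH members, with a median log2 ratio of 0.17. Against G members 1036 of 5013 were higher (20.7%) and 342 lower (6.82%), with a median of 0.18. With the median set to 0 the counts were 675 and 498 against PH and 648 and 633 against G. Cholesterol genes were lower in 10 of 12 against PH members (-1.40) and in 9 of 11 against G members (-1.61). Idi1 was at 10.4 CPM in GPH members, 50.4 in PH members and 66.2 in G members. MHC class II genes were higher in 6 of 6 against PH members (1.27) and in 0 of 6 against G members (-0.28): Cd74 was at 690, 180 and 737 CPM in GPH, PH and G members. Acute-phase genes were higher in 8 of 8 in both comparisons (1.61 and 1.71). Lysosome genes were higher in 9 of 19 against PH members (0.57) and 13 of 19 against G members (0.64). Bloc1s1 was at 14.3, 75.2, 91.5 and 40.9 CPM in GPH, PH, G and control members.

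Taken gene by gene, the members of PH and GPH were unlike in what stood out. Tnfaip3, Ccl2, Nfkbia and Idh1 were highest in PH members, at 111, 1517, 890 and 172 CPM, against 54.8, 949, 642 and 50.8 CPM in GPH members. Has2, Inhba, Il33, Hmox1 and Cxcl5 were highest in GPH members, at 227, 454, 306, 462 and 233 CPM, against 35.6, 91.5, 58.1, 86.1 and 122 CPM in PH members. Inhba, Has2 and Il33 were higher in G members (267, 118 and 145 CPM) than in PH members, and G and GPH are the libraries whose tumour cells carried Y-linked transcripts.

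The gate was met by other vimentin-high cells as well. Among the 1608 Dcn or Dpt expressing cells of PH, which met all other conditions but that on Dcn and Dpt, 53.8% had 3 or more UMIs of Slc7a11 and Ereg, and 25.4% at 5000 UMIs per cell. At equal depth the share in such cells was 17.1% in G, 18% in GPH (interval 15.3 to 20.9) and 5.29% in control. Each lay above the share of the base population in the same library, with overlapping intervals in GPH. Of 4417 genes, 16 were higher (0.362%) and 61 lower (1.38%) in PH members than in these cells. Lcn2 was at 53.6 CPM in members and 22.3 in Dcn or Dpt cells, Gprc5a at 67.2 and 41.3 CPM, and the epithelial secretory gene Wfdc2 at 460 and 299 CPM. Complement C3 was at 22.7 and 74.4 CPM, smooth muscle actin (Acta2) at 20.1 and 53.9 CPM and the matrix genes Bgn and Ogn at 45.0 and 105 and at 30.9 and 71.4 CPM. Of 15 NF-kappaB genes 1 was higher and 0 lower, with a median log2 ratio of 0.08, so members and Dcn or Dpt cells were close in that list.

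Mitotic cells of PH passed the gate less. Of 2186, 16.1% had 3 or more UMIs of the pair, and 2.24% at equal depth. Of 4714 genes, 444 were higher (9.42%) and 671 lower (14.2%) in members than in mitotic cells, and the cell cycle conditions of the rule fix much of this difference. Outside the cell cycle, Lcn2 was at 53.6 CPM in members and 2.90 in mitotic cells, Hmox1 at 86.1 and 19.2 CPM, ceruloplasmin (Cp) at 94.3 and 22.6 CPM and Cxcl5 at 122 and 34.0 CPM. All 7 acute-phase genes were higher in members (median log2 ratio 2.06), and 10 of 13 cholesterol genes were lower (-0.80). Members overlapped with the Slurp1 or Prl2c2 expressing cells of the base population in 216 PH cells, which were 16.2% of members and 26.6% of those 812 cells. In control the overlap was 112 cells, 35.2% of members and 17.1% of 655.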

How the data were processed

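Single-cell RNA of 4 mouse tumour libraries, 1 per group, was analysed. The authors deposited unnormalized whole-number counts of UMIs for each barcode and gene, made with Cell Ranger against mm10 (version 6.1 per the submitters' processing notes, 7.0.1 per the file headers). Cells were chosen by the rule given above. UMIs were summed over the cells of a population and scaled to CPM, and features that share a symbol were added together. For ratios the interval is the exact conditional binomial one, for shares the Clopper-Pearson one, both at 95% and for counting error only, since UMIs of pooled animals are not replicates. A gene was measured at 20 CPM on 1 side and 20 UMIs over both, and called at 1.5-fold. For a count of 0 the floor was 3 counts. Thinning drew 5000 UMIs per cell without replacement.

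The members and gene lists were chosen with earlier results of these data known, so no count over them is independent support. Named genes had 50 CPM on 1 side and were ordered by whichever end of their ratio's interval lay closer to no change, with 10 taken on each side for PH and 5 elsewhere. Genes of mitochondria, ribosomes, antigen receptors, sex chromosome markers and gene predictions were left out, as were genes at over 10 times the level in leukocytes. Other genes are named from the lists, or because a figure or a total rests on them.

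T cells for the background of free RNA had at least 2 UMIs of Cd3 genes and 0 of Cdkn2a. Scrublet's automatic caller marked 1, 0, 2 and 0 of 16033, 14022, 4579 and 11051 barcodes in PH, G, GPH and control, so it had not worked, and members were kept. An alternative left out the highest scores at 0.8% per 1000 barcodes, which took 193, 8, 2 and 25 members. In simulated counts for PH against control members, 50 of 50 genes were called at each of 4 true folds (2, 0.5, 4 and 0.25), and 0 of 4190 unchanged ones. The simulated counts held counting error only, with no spread between cells or libraries. They check the calculation and cannot show how often calls in these data are wrong. Of 32285 feature IDs, 32158 matched GENCODE vM21. The work used scanpy 1.11.5 with anndata 0.12.19 for Scrublet, scipy 1.17.1 and numpy 2.4.6 for intervals and thinning, pandas 2.3.3 for tables and matplotlib 3.10.9 for figures, under Python 3.11.15. A few genes that passed the rule are not reported here.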

Additional observations from a re-analysis of the deposited data

Results flagged for a closer look

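For Apoc2 and Tff2, the difference between members and the rest pointed in opposite directions in G and GPH. Apoc2, an apolipoprotein gene, had a ratio of 3.23 in GPH members against the GPH rest and of 0.175 in G members against the G rest. Tff2, a trefoil peptide gene of mucous epithelia, had a ratio of 47.1 in G and of 0.275 in GPH. The difference between the libraries was not tested. A single member held 97.6% of the Apoc2 UMIs in GPH members, and another held 93.4% of the Tff2 UMIs in G members.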

How the results depend on the processing

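No paired analysis was possible because each group has 1 library. The share past the gate was highest in GPH, then PH, G and control, under each setting tried. It was 11.9%, 5.79%, 15.2% and 3.15% in PH, G, GPH and control with cells thinned before all conditions, and 10.9%, 5.62%, 13.5% and 2.86% with the gate alone counted in another draw of 5000 UMIs. A gate of 2 UMIs gave 32.1%, 21.3%, 44.9% and 17.3%, a gate of 5 UMIs 14.7%, 8.19%, 22.1% and 4.58%, and 3 UMIs per 10000 gave 18.1%, 9.31%, 21.1% and 5.05%. Slc7a11 alone gave 9.91%, 3.37%, 11.6% and 1.34%, and Ereg alone 15.3%, 10.4%, 22.6% and 8.23%. At 10000 UMIs or more the share was 33.0%, 17.2%, 38.2% and 13.0%. With marker-carrying cells left out, an alternative chosen after seeing the data, it was 21.8%, 11.9%, 30.7% and 9.15%. A limit of 10% mitochondrial UMIs and the Scrublet alternative moved no share beyond its interval.

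Counts of genes higher and lower in members than in the rest moved with several settings. Thinned, they were 332 and 55 in PH, 1443 and 562 in G, 746 and 260 in GPH and 866 and 137 in control. That setting chose the cells again as well as lowering their depth, and the cause was not tested. Measured at 50 CPM they were 107 and 2, 200 and 23, 62 and 17, and 53 and 1. A gate of 5 UMIs gave 217 lower in G, and 184 higher and 15 lower in control. Against cells with 0 gate UMIs, 10 were lower in PH, 328 higher and 135 lower in GPH, and 199 higher in control. The Scrublet alternative gave 10 lower in PH, and the mean CPM per cell 192 higher in control. Without marker-carrying cells, 833 were higher and 258 lower in G, and 258 higher in GPH.

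Between libraries, 50 CPM gave 165 higher and 256 lower in PH against control members, 208 and 186 in G against control, 471 and 311 in GPH against control, 409 and 144 in GPH against PH, and 380 and 186 in GPH against G. With no filter on CPM the counts were 1444 and 1588, 1203 and 1686, 2353 and 1165, 2857 and 1236, and 2172 and 636 in that order. Gating thinned cells gave 1131 lower in PH and 886 lower in G against control, and 1687 higher and 421 lower in GPH against PH. With the median of all genes set to 0, GPH had 675 higher and 498 lower against PH, and 648 and 633 against G.

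Among named genes under other settings, 959 values stayed within their interval, 391 moved and 22 changed direction; the cause was not tested. In members against the rest, the log2 ratio without marker-carrying cells was -2.17 (Cxcl2) and 0.16 (Sprr1a) in G, -2.63 (Cxcl2) in control, and -4.25 (Apoc2), -1.05 (Gsta1), -0.021 (Rarres2), 0.057 (Rbp4) and 1.09 (Reg3b) in GPH. Thinned, it was -3.40 (Apoc2), -0.64 (Gsta1) and -0.41 (Rarres2) in GPH, and 0.16 (Jun) and 0.31 (Lars2) in control. The Scrublet alternative gave 0.50 (Reg3b) in GPH. In members of G against control without marker-carrying cells, Csf3 was at -0.39. Gating thinned cells gave -1.45 for Tm4sf4 in GPH against control, and -3.00 (Apoc2), 0.16 (Ccl2) and -0.19 (Gsta1) in GPH against G. Without marker-carrying cells the last comparison gave -1.32 (Apoc2), 0.13 (Ccl2) and -0.18 (Lgals4). The 51 and 102 members left in G and GPH by that setting limit what their values can show.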
